A study of Mus musculus with 35 samples.

Results

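Messenger RNA of 10 genes that neutrophils express, S100a8, S100a9, Retnlg, Mmp8, Mmp9, Il1b, Cxcr2, Csf3r, Fpr1 and Tlr1, was followed in whole mouse lung. The 10 genes were chosen by symbol, and all 10 were among the 54532 genes of the count and FPKM tables (FPKM, a read count scaled by transcript length and library size). Lungs came from male and female mice at least 3 months old that had breathed room air (normoxia) or 10% O2 (hypoxia) for 6 weeks. Control mice were wild type on a B6/129SJ2 background. Cav1-KO mice carried the global knockout allele Cav1(tm1Mls)/J, so that caveolin-1, the coat protein of caveolae, was lost from every cell type. Cav1-RC mice carried the knockout as well, together with Cav1 put back in endothelial cells. That line came from another laboratory than the other mice, so genotype and origin of the line cannot be told apart for it. With both sexes pooled there were 6 normoxic and 6 hypoxic Control libraries, 5 and 6 Cav1-KO libraries, and 5 and 6 Cav1-RC libraries, 34 in all. Of the 12 groups by sex, genotype and oxygen, 10 held 3 libraries, and the normoxic females of Cav1-KO and of Cav1-RC held 2 each, and each library was treated as 1 sample.

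Total counts ran from 12425535 to 33343006 per library, with a median of 18015172. Cav1 measured 284 to 394 FPKM in Control lungs, 0.461 to 1.13 in Cav1-KO and 0.423 to 1.89 in Cav1-RC, so the table tells Control from the others but does not show the returned Cav1, whose construct was not described in enough detail here to say whether its transcript would be counted. Xist and the Y-linked genes both went against the labelled sex in 3 libraries, labelled male Control hypoxia replicate 2 and male Cav1-RC normoxia replicates 1 and 2. In another library, female Cav1-KO hypoxia replicate 2, Xist (714 CPM, counts scaled to a common library size) was at the level of the other females, but 4 Y-linked genes summed to 17.5 CPM, against at most 2.55 in the other libraries labelled female and 182 to 345 in those with male levels of Xist. Groups below follow the labels, and all 4 are meant by libraries against their sex label. The animal numbers of 12 of the 34 libraries also stand on the study's lists of western blot animals: 1 of 6 normoxic and 4 of 6 hypoxic Control libraries, 0 of 5 and 6 of 6 Cav1-KO libraries, and 1 of 5 and 0 of 6 Cav1-RC libraries. For hypoxia against normoxia in Cav1-KO and for Cav1-RC against Cav1-KO in hypoxia, listing and condition cannot be told apart. Within males the same holds for hypoxia against normoxia in Control and for Cav1-RC against Control in hypoxia. All male hypoxic Control libraries are listed, and no male normoxic Control or male hypoxic Cav1-RC library is. Values with a term for the list come from 1 fit over all 34 libraries, so they can differ from the main fits for that reason too. The term rests on the groups with listed as well as unlisted animals, female normoxic and hypoxic Control and female normoxic Cav1-RC. No male group and no Cav1-KO group held both, so for those the term is carried over from these females. These values and those without the 4 libraries are given beside some of the results they change, and more stand in the last section. The tissue label was borne out by 10 lung epithelial and endothelial genes, which summed to 15620 to 34422 CPM in every library with none of the 10 at 0, whereas Ly6g, the defining surface marker of mouse neutrophils, had 0 counts in 11 libraries.

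Neutrophils are short-lived white blood cells that leave the bone marrow, circulate, linger in the lung capillaries and enter tissue along chemokine gradients. They store antimicrobial proteins and proteases in granules made in sequence during maturation, and they sense bacteria through Toll-like and formyl peptide receptors. Low oxygen narrows and remodels small lung arteries, and immune cells around those vessels are commonly described in hypoxic pulmonary hypertension. Most of the 10 genes are also transcribed to some degree in monocytes or macrophages. In whole lung, fewer cells of a type and less RNA per cell cannot be told apart.

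Promoter sequence is shown for S100a8 and S100a9, which lie 22597 bases apart on chromosome 3 and whose RNA moved together, for Retnlg and Mmp8, which are secreted as well, and for Tlr1, whose RNA followed the genotype. The windows span 250 bases before to 50 after the RefSeq start site on GRCm38.p6, written 5′ to 3′ on the gene's strand. RefSeq windows were matched for 9 of the 10 genes (not Mmp9). Tlr1 had windows at both of 2 start sites, of which the one with a motif is shown; the other, chr5:64932650-64932949, held none of the motifs searched. Capitals mark TATAAA, searched on the gene's strand, and GAGGAAGT, a PU.1-type ETS motif, searched on both strands (its reverse complement is the form in capitals for S100a8 and Mmp8). Both motifs were picked after the letters had been seen, and no 2 matches overlap.

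S100a8, chr3:90668821-90669120, plus strand: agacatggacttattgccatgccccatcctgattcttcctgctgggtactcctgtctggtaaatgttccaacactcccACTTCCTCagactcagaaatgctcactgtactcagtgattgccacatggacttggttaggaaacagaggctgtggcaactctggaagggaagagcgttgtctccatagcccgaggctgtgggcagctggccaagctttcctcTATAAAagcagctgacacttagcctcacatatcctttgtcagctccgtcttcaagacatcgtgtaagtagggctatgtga

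S100a9, chr3:90695672-90695971, minus strand: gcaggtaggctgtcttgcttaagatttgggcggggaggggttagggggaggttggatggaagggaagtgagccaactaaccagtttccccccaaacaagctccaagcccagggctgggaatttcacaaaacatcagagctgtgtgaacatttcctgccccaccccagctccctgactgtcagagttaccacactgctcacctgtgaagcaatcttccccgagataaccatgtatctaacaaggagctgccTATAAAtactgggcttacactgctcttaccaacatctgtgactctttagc

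Retnlg, chr16:48872358-48872657, plus strand: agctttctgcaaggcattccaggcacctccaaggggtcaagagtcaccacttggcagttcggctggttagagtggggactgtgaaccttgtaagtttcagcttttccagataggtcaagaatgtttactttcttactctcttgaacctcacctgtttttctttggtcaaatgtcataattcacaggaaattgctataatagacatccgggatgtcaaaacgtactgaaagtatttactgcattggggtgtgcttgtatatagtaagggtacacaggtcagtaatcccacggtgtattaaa

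Mmp8, chr9:7558179-7558478, plus strand: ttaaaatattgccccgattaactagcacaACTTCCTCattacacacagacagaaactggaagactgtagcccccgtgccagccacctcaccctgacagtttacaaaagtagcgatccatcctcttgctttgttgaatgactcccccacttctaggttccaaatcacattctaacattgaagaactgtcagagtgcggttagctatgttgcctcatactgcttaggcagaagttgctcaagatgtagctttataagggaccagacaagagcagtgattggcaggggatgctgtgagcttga

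Tlr1, chr5:64933509-64933808, minus strand: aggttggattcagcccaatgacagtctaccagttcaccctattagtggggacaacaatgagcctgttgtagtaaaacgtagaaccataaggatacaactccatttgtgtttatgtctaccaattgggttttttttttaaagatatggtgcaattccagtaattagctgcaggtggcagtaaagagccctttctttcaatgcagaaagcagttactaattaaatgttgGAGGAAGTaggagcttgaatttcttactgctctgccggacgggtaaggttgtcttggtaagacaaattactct

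TATAAA stood in 4 of the 9 members' windows (S100a8, S100a9, Il1b and Fpr1) and in 8.32% of all 32851 RefSeq windows. It began 30 bases before the start site in S100a8 and 31 before it in Il1b, at the start site itself in S100a9 and near the far end of the window in Fpr1. GAGGAAGT stood in 3 of 9 (S100a8, Mmp8 and Tlr1) and in 3.20% of all windows. The C/EBP-type motif TTNNGCAA, searched on both strands and not capitalised, stood in Mmp8, Retnlg and S100a9 and in 10.8% of all windows. A match is a run of letters, and binding was not measured.

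**Figure D1:**
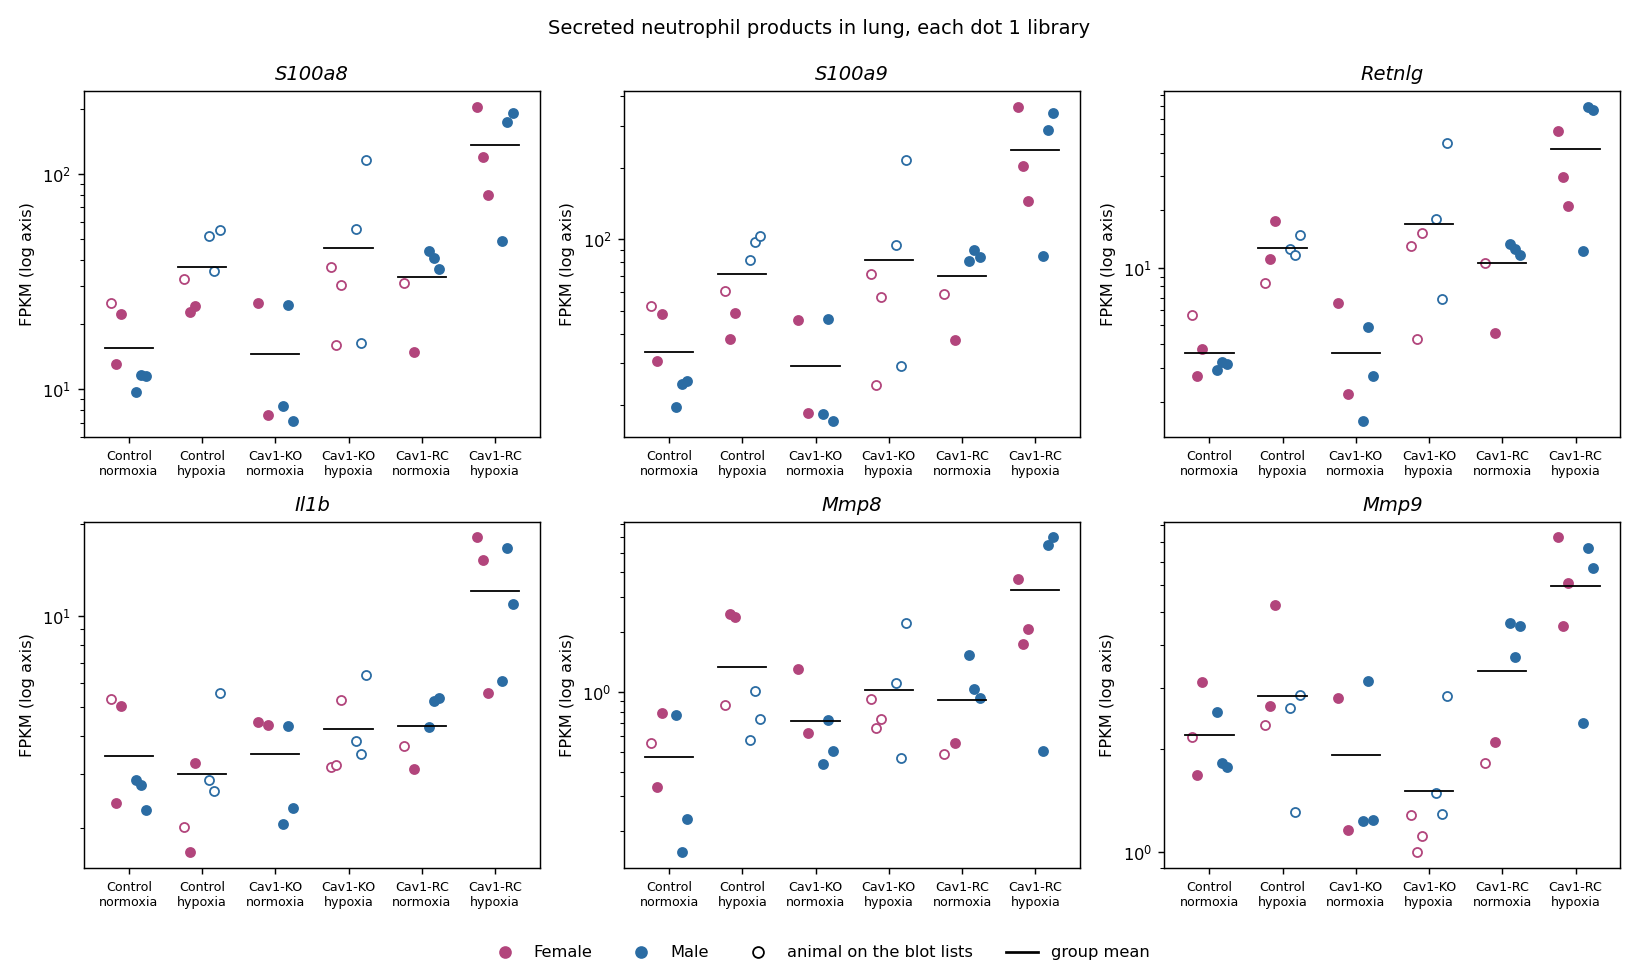
FPKM (log axis) of S100a8, S100a9, Retnlg, Il1b, Mmp8 and Mmp9 in each library, grouped by genotype and oxygen. Each dot is 1 library, coloured by labelled sex and open where the animal number is on the western blot lists, and the line is the group mean; hypoxic Cav1-RC has the highest mean in all 6 panels, 136 FPKM for S100a8 and 42.0 FPKM for Retnlg.

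S100a8 and S100a9 encode the 2 subunits of calprotectin, the calcium- and zinc-binding protein that fills neutrophil cytosol and signals through TLR4 and RAGE. Both rose with hypoxia in all 3 genotypes and were highest in hypoxic Cav1-RC. S100a8 (mm10 chr3:90668978-90670035) measured 15.5 ± 6.43 FPKM in normoxic Control (SD, n = 6) and 36.8 ± 13.5 in hypoxic Control (n = 6). Single normoxic Control libraries ran from 9.73 to 25 FPKM with a median of 12.3, and hypoxic ones from 22.8 to 54.7 with a median of 33.8, so the groups overlapped at the edge. In Cav1-KO it measured 14.6 ± 9.43 FPKM in normoxia (n = 5) and 45.1 ± 37.5 in hypoxia (n = 6). The 5 normoxic Cav1-KO libraries fell apart into 7.10, 7.60 and 8.37 FPKM on the one side and 24.6 and 25.2 on the other, and the hypoxic ones ran from 16 to 115.5, the highest being male replicate 3. In Cav1-RC it measured 33.3 ± 11.4 FPKM in normoxia (n = 5), from 14.9 to 44.0. It measured 136 ± 63.7 FPKM in hypoxic Cav1-RC (n = 6), from 48.6 in male replicate 1 to 205 in female replicate 1, with no overlap between the oxygen levels.

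The hypoxic increase of S100a8 was 1.25 ± 0.184 on the log2 scale in Control (SE; adjusted p = 0.00466 by edgeR's quasi-likelihood test with Benjamini-Hochberg adjustment over all genes tested, as are all adjusted p-values below unless another test is named). It was 1.47 ± 0.512 in Cav1-KO (adjusted p = 0.0258) and 2.15 ± 0.372 in Cav1-RC (adjusted p = 0.0139). S100a9 (chr3:90692632-90695721) followed with 1.10 ± 0.161, 1.33 ± 0.493 and 1.88 ± 0.346. Its group means were 33.5, 71.6, 29.2, 81.7, 70.1 and 237 FPKM in the order of normoxic and hypoxic Control, Cav1-KO and Cav1-RC. The S100a9 to S100a8 ratio of FPKM stayed between 1.53 and 2.77 across the 34 libraries (median 1.88) while S100a8 itself spanned 7.10 to 205 FPKM. In hypoxia Cav1-RC exceeded Control by 1.94 ± 0.326 for S100a8 (adjusted p = 0.00689) and 1.79 ± 0.318 for S100a9 (adjusted p = 0.00887), and both calls held whichever of the 12 libraries was left out. Hypoxic Cav1-KO and Control differed by 0.23 ± 0.364 for S100a8 (adjusted p = 0.686).

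Several of these calls rested on particular libraries. With a term for the blot list the hypoxic increase of S100a8 was 0.95 in Control (adjusted p = 0.15) and 0.82 in Cav1-KO (adjusted p = 0.597), and in Cav1-KO the call was also lost without male normoxia replicate 1 or 3, female normoxia replicate 2 or male hypoxia replicate 3 (adjusted p 0.0571 to 0.110). In Cav1-RC the increase was 2.25 without the libraries against their sex label, with an adjusted p of 0.188, and 2.35 with the list term, with an adjusted p of 0.0022.

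Retnlg (chr16:48872621-48874496), a resistin-like secreted protein of mature mouse neutrophils, showed the largest ratio between group means of the 10 genes, 11.7-fold. It measured 3.57 ± 1.09 FPKM in normoxic Control (n = 6), 2.74 to 5.68, and 12.7 ± 3.22 in hypoxic Control (n = 6), 8.35 to 17.6. The Control groups did not overlap, and the increase was 1.83 ± 0.236 on the log2 scale (adjusted p = 0.00244), 1.71 with the list term (adjusted p = 0.0197). Normoxic and hypoxic Cav1-KO libraries measured 1.58 to 6.55 FPKM (median 2.71) and 4.23 to 44.8 (median 14.1), and normoxic and hypoxic Cav1-RC libraries 4.57 to 13.4 (median 11.7) and 12.3 to 69.6 (median 41.0). The hypoxic increase was 2.08 ± 0.534 in Cav1-KO (adjusted p = 0.00512) and 2.07 ± 0.432 in Cav1-RC (adjusted p = 0.033). The increase in Cav1-RC minus that in Cav1-KO was −0.02 ± 0.647 (adjusted p = 0.99). In normoxia Retnlg was already 1.45 ± 0.255 higher in Cav1-RC than in Control (adjusted p = 0.0096). That difference was 1.40 without the libraries against their sex label (adjusted p = 0.149), since 2 of the 5 normoxic Cav1-RC libraries are among them. The Cav1-KO increase was 1.76 with the list term (adjusted p = 0.265), and the Cav1-RC increase lost its call without any of 8 of the 11 libraries (adjusted p up to 0.0851).

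Il1b (chr2:129364570-129371139) encodes interleukin-1β, the fever-inducing cytokine that is cut to its active form by the inflammasome. It stood out in hypoxic Cav1-RC alone among the group means: 12.1 ± 5.40 FPKM (n = 6) against 3.00 to 4.34 in the 5 other groups. The hypoxic Cav1-RC libraries measured 18.1, 15.2 and 5.57 FPKM in females and 6.11, 16.6 and 10.9 in males. All 6 lay above the 5 normoxic Cav1-RC libraries (3.12 to 5.35 FPKM). The 6 hypoxic Control libraries ran from 1.66 to 5.573 FPKM, level at the top with the lowest hypoxic Cav1-RC library (5.574). The hypoxic Cav1-KO libraries, 3.17 to 6.37 FPKM, overlapped the hypoxic Cav1-RC libraries at 5.57 and 6.11. The difference was 2.04 ± 0.348 on the log2 scale against hypoxic Control (adjusted p = 0.00715) and 1.5 ± 0.312 against hypoxic Cav1-KO (adjusted p = 0.00158), and both calls held without any 1 of the 12 libraries. Hypoxia against normoxia in Cav1-RC gave 1.54 ± 0.319 (adjusted p = 0.0324), a call that was lost in 9 of 11 fits with 1 library left out (adjusted p up to 0.0905). The same difference was −0.20 ± 0.269 in Control lungs and 0.23 ± 0.240 in those of Cav1-KO, neither past the threshold. An antisense gene, Il1bos, overlaps Il1b and held 3 to 39 counts per library beside 63 to 500 for Il1b. The paper gives default parameters for the counting and names no strand setting apart from that.

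Mmp8 and Mmp9 encode neutrophil collagenase and gelatinase B, proteases released from granules that cut interstitial and basement membrane collagen. Mmp8 (chr9:7558456-7568485) was the lowest of the 10 genes in normoxic Control, 0.474 ± 0.273 FPKM (n = 6) and had as few as 7 counts in a library. It reached 3.26 ± 2.19 FPKM in hypoxic Cav1-RC, where libraries measured 3.69, 1.75 and 2.09 in females and 0.506, 5.52 and 5.99 in males. The lowest of these, male replicate 1, lay within the normoxic Cav1-RC range of 0.492 to 1.54, so that the groups overlapped. Mmp8 was higher in hypoxic Cav1-RC than in hypoxic Cav1-KO by 1.66 ± 0.495 (adjusted p = 0.0134), and by 1.01 with the list term (adjusted p = 0.427). Its difference from hypoxic Control, 1.38 ± 0.494, and from normoxic Cav1-RC, 1.99 ± 0.517, missed the threshold (adjusted p = 0.0949 and 0.0749).

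Mmp9 (chr2:164940780-164955850) had the lowest adjusted p of the 6 secreted proteins between hypoxic Cav1-RC and Cav1-KO. In hypoxia it measured 5.95 ± 2.18 FPKM in Cav1-RC (n = 6), 2.37 to 8.25, and 1.503 ± 0.680 in Cav1-KO (n = 6), 1.00 to 2.85. The difference was 2.01 ± 0.288 on the log2 scale (adjusted p = 0.00013), and 1.63 with the list term (adjusted p = 0.0351). The groups overlapped only through male Cav1-RC replicate 1 (2.37 FPKM) and male Cav1-KO replicate 3 (2.85 FPKM). Hypoxic Cav1-KO was 0.95 ± 0.280 below hypoxic Control (adjusted p = 0.0432), short of the fold threshold of 1. Hypoxic Cav1-RC was 1.08 ± 0.321 above hypoxic Control (adjusted p = 0.056).

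**Figure D2:**
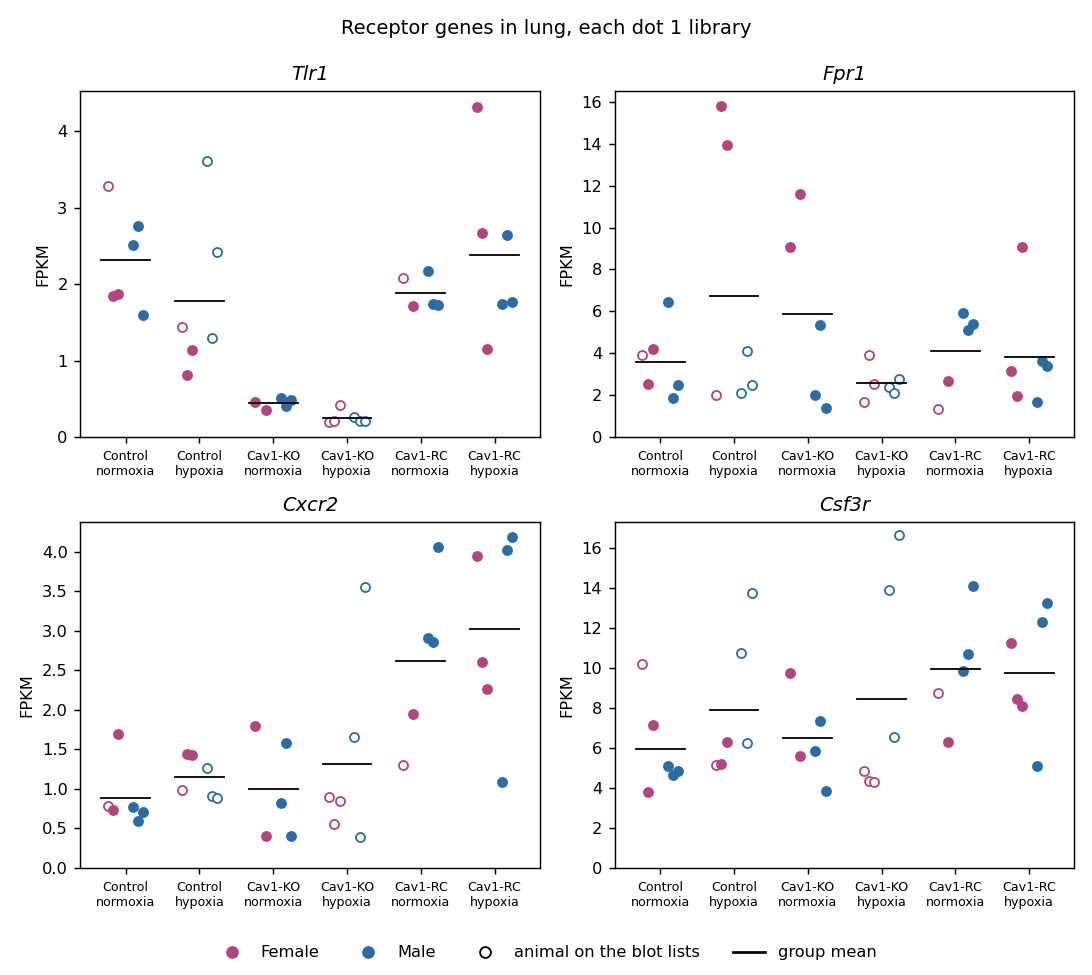
FPKM (linear axis) of the receptors Tlr1, Fpr1, Cxcr2 and Csf3r in each library, grouped by genotype and oxygen. Each dot is 1 library, coloured by labelled sex and open where the animal number is on the western blot lists, and the line is the group mean; all 11 Cav1-KO libraries lie at or under 0.504 FPKM for Tlr1, below every Control and Cav1-RC library.

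The 4 receptors come next. Cxcr2 (chr1:74153989-74161246), the receptor for the neutrophil-attracting CXC chemokines, was set apart by genotype more than by oxygen. It measured 0.881 ± 0.404 and 1.16 ± 0.257 FPKM in normoxic and hypoxic Control, 1.00 ± 0.654 and 1.32 ± 1.18 in Cav1-KO, and 2.62 ± 1.05 and 3.02 ± 1.24 in Cav1-RC. Libraries of Cav1-RC ran from 1.31 to 4.07 FPKM in normoxia and from 1.09 to 4.19 in hypoxia. Hypoxia against normoxia gave Cxcr2 differences of 0.42 ± 0.250 for Control, 0.22 ± 0.527 for Cav1-KO and 0.37 ± 0.316 for Cav1-RC, none past the threshold (adjusted p 0.525 to 0.732). Cav1-RC exceeded Control by 1.43 ± 0.252 in normoxia (adjusted p = 0.00997) and 1.38 ± 0.306 in hypoxia (adjusted p = 0.021). The normoxic difference became 1.58 without the libraries against their sex label (adjusted p = 0.0764), and the hypoxic difference 0.99 with the list term (adjusted p = 0.252).

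Csf3r (chr4:126024550-126044440), the receptor for G-CSF, the cytokine that drives neutrophil production and release, varied least: its 6 group means lay between 5.95 and 9.92 FPKM, a ratio of 1.67. It was called in none of the 9 comparisons with the sexes together. The library values ran from 3.78 to 16.7 FPKM, with the highest in male Cav1-KO hypoxia replicate 3, the library that was also the highest Cav1-KO library for S100a8. In males alone Csf3r rose with hypoxia in Control, by 1.09 on the log2 scale (adjusted p = 0.0314), and in Cav1-KO, by 1.12 (adjusted p = 0.0178). With the list term these were 0.67 (adjusted p = 0.454) and 0.68 (adjusted p = 0.593), and with 1 library left out the calls were lost in 5 of 6 and 3 of 6 fits (adjusted p 0.0516 to 0.113). In females the differences were −0.37 in Control (adjusted p = 0.871) and −0.78 in Cav1-KO (adjusted p = 0.031, short of the fold threshold).

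Tlr1 (chr5:64924679-64933563) pairs with Tlr2 to detect bacterial triacyl lipopeptides. It was low in every Cav1-KO lung whatever the oxygen level or sex. The 11 Cav1-KO libraries measured 0.201 to 0.504 FPKM (median 0.348), the 12 Control libraries 0.815 to 3.61 (median 1.85) and the 11 Cav1-RC libraries 1.15 to 4.32 (median 1.76). No Cav1-KO library reached the lowest of the others. The difference of Cav1-KO from Control was −2.42 ± 0.244 on the log2 scale in normoxia (adjusted p = 0.000203) and −2.73 ± 0.308 in hypoxia (adjusted p = 0.000598). Cav1-RC lay above Cav1-KO by 2.12 ± 0.169 in normoxia (adjusted p = 5.1e-05) and by 3.21 ± 0.330 in hypoxia (adjusted p = 1.63e-05). Cav1-RC and Control differed by −0.29 ± 0.217 in normoxia and 0.49 ± 0.328 in hypoxia, neither past the threshold (adjusted p = 0.681 and 0.352). All 4 differences with Cav1-KO were called in every fit with 1 library left out, with the list term and without the libraries against their sex label. The gene next to it, Tlr6, its paralogue and another partner of Tlr2, differed by 0.07 ± 0.275 between normoxic Cav1-KO and Control, and of 26 tested genes within 1 Mb on either side 2 were called, Tlr1 itself and the non-coding Gm3716 (2.24 ± 0.388, chosen after its value was seen). Tlr2 itself was 1.03 ± 0.246 higher in Cav1-KO than in Control in normoxia (adjusted p = 0.0203), with medians of 8.36 and 3.66 FPKM. It fell with hypoxia in Cav1-KO, by −1.32 ± 0.17 (adjusted p = 3.9e-05), to a median of 3.44 FPKM against 3.50 in hypoxic Control.

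The genes whose log2 CPM was most like that of Tlr1 over the 34 libraries were Gm26510 (r = 0.914), Rnf26 (0.908), Cd3g (0.904) and Nxpe4 (0.902), Cd3g being a chain of the T cell receptor complex. Tlr1 correlated with the summed level of 8 T cell genes at r = 0.847 and with that of 8 B cell genes at r = 0.788. Those lists moved too: of 8 T cell genes, 3 fell in Cav1-KO against Control in normoxia and 4 in hypoxia (5.78% and 4.14% of all genes called), and the summed level ran from 34.2 to 59.99 CPM in normoxic Cav1-KO and 65.0 to 117 in normoxic Control. In hypoxia it ran from 24.0 to 54.3 CPM in Cav1-KO and 45.6 to 90.4 in Control. Of 8 B cell genes 3 fell in normoxia and 1 in hypoxia, with a summed level of 59.99 to 91.8 CPM in normoxic Cav1-KO and 77.8 to 255 in normoxic Control, and the part of either cell type in the Tlr1 difference was not tested.

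Fpr1 (chr17:17876471-17883940), the receptor for formylated bacterial peptides, correlated weakly with most of the other genes, most closely with Mmp8 (r = 0.418). Its group means ran from 2.57 FPKM in hypoxic Cav1-KO to 6.75 in hypoxic Control. The hypoxic Control mean rested on female replicates 2 and 3, at 15.8 and 13.96 FPKM, while the 4 other libraries, those on the blot list, measured 2.02 to 4.09. Female normoxic Cav1-KO was high as well, at 9.05 and 11.6 FPKM, against 1.38 to 5.34 in males. Hypoxia against normoxia in Cav1-KO gave −1.10 ± 0.315 on the log2 scale (adjusted p = 0.00964), a difference that was −0.01 with the list term (adjusted p = 1). The genes most like Fpr1 were Ear2 (r = 0.919), Mpeg1 (0.916) and Vstm2a (0.915), and Siglec1, a macrophage lectin, followed at 0.896. Ear2, a ribonuclease expressed in alveolar macrophages, measured 26.1 to 197 FPKM, and its 2 highest Control values (197 and 167 FPKM) were in the libraries highest for Fpr1. The correlation with Ear2 was 0.916 after the 12 group means were taken out, while that of S100a8 with Ear2 was −0.0795. The summed level of 14 alveolar macrophage genes ran from 482 to 4251 CPM over the 34 libraries, of which Chil3 made up 44.6% of the mean, and was 3535 and 2431 CPM in those 2 hypoxic Control libraries. The library highest in that sum, female Cav1-RC hypoxia replicate 2, measured 1.955 FPKM of Fpr1 and 53.3 FPKM of Ear2, while female Cav1-RC hypoxia replicate 3 measured 9.10 and 192. Fpr1 correlated with the summed level of 14 alveolar macrophage genes at r = 0.668 (0.542 after the group means were taken out), of 14 monocyte genes at 0.696 (0.723), and of 5 eosinophil genes at 0.845 (0.831), the last list sharing Siglecf with the alveolar macrophage list. Fpr1 also had the highest correlation of the 10 genes with the sum of the 40 other neutrophil genes described below, 0.653 (0.736), and with that of 15 granule genes, 0.702 (0.766), most of which is Lyz2. S100a8 stood at 0.235 (0.0466) and −0.0370 (−0.160) with those sums. The part of any of these cells in the Fpr1 values was not tested. Correlations here and below are descriptions over libraries that share genotype, oxygen level, sex and list.

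**Figure D3:**
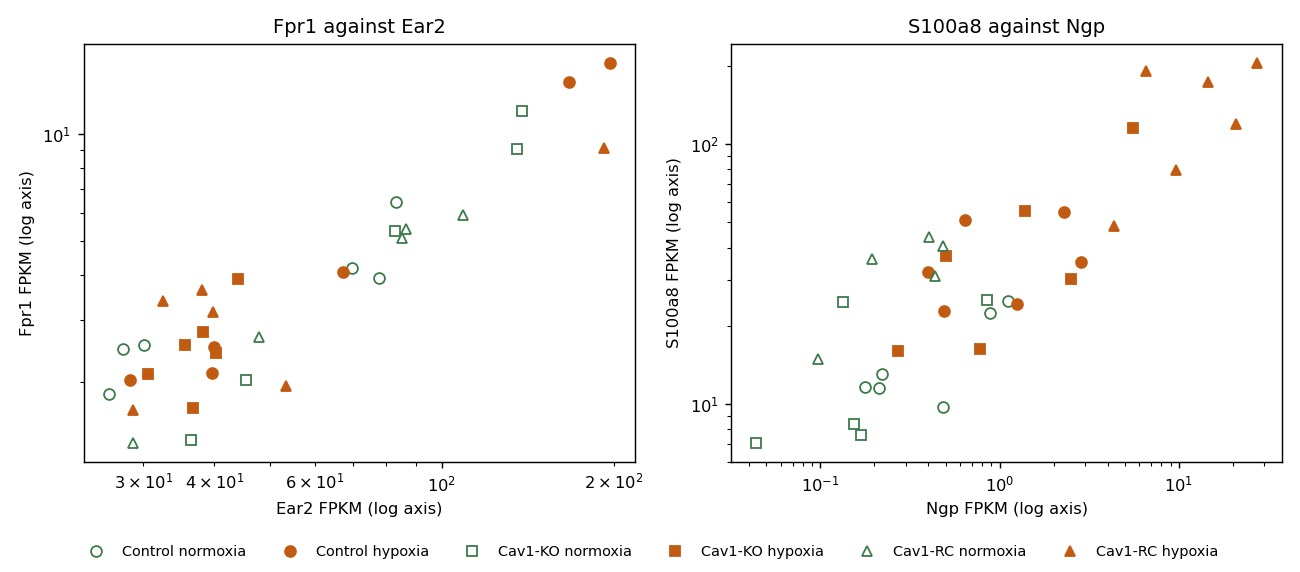
Fpr1 against Ear2 (left) and S100a8 against Ngp (right), in FPKM on log axes, 1 symbol per library (circles Control, squares Cav1-KO, triangles Cav1-RC; open normoxia, filled hypoxia). Fpr1 follows Ear2 across genotypes (r = 0.919 on log2 CPM), and S100a8 rises with Ngp (r = 0.856); 5 of the 6 hypoxic Cav1-RC libraries have more Ngp than any other library, while male replicate 1 (48.6 FPKM of S100a8 and 4.36 of Ngp) lies below male hypoxic Cav1-KO replicate 3 (115.5 and 5.54) in both.

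Leaving out Fpr1 and Tlr1, a choice made after the values were seen, the other 8 genes correlated with each other at r = 0.546 to 0.990 over 28 pairs (median 0.733), and at 0.489 to 0.970 after the 12 group means were taken out. The closest pairs were S100a8 with S100a9 (0.990) and S100a8 with Retnlg (0.956). Fpr1 correlated with the 8 at −0.0499 to 0.418 and Tlr1 at 0.0720 to 0.559, and at 0.00989 to 0.553 and 0.0558 to 0.553 with the group means taken out, so that these ranges overlapped that of the 8. Outside the 10, the genes most like their mean z score among 16030 genes with a mean of at least 1 CPM were Asprv1 (r = 0.808), Gm5150 (0.798), Padi4 (0.790), B430306N03Rik (0.773), Ngp (0.773), Sirpb1b (0.760), Trem1 (0.742), Agtrap (0.741), Lpcat2 (0.722) and Ifitm6 (0.717). Padi4 makes the citrulline of neutrophil extracellular traps, Trem1 amplifies Toll-like receptor signals, and Ngp encodes a granule protein made by immature neutrophils. Among the summed cell type lists, that of platelets and megakaryocytes correlated with S100a8 at r = 0.654 and with Retnlg at 0.652 (0.620 and 0.504 with the group means taken out). With the sum of the 40 other neutrophil genes these were 0.235 and 0.309 (0.0466 and 0.233), and the part of platelets in the values of either gene was not tested.

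**Figure D4:**
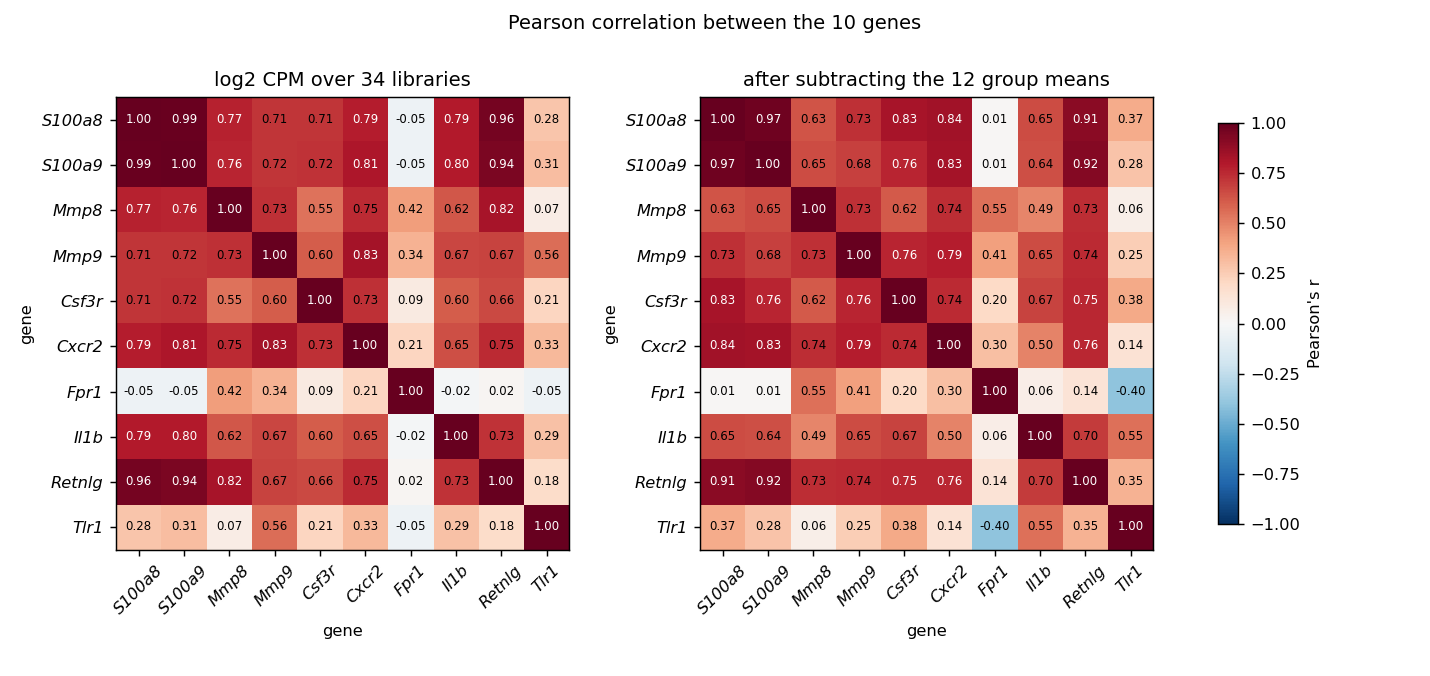
Pearson's r of log2 CPM between the 10 genes over 34 libraries, as measured (left) and after the means of the 12 groups were taken out (right); colour runs from negative to positive r. S100a8, S100a9 and Retnlg form the closest block (0.945 to 0.990 on the left), and most values of Fpr1 and Tlr1 lie below those among the other 8, with overlap: Tlr1 with Mmp9 is 0.559 on the left, and on the right Fpr1 with Mmp8 and Tlr1 with Il1b are 0.553 and Fpr1 with Tlr1 is −0.401.

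Taken comparison by comparison with the sexes together, the members were called (log2 fold change beyond 1 in size and adjusted p under 0.05) as follows, beside the share of all tested genes called. For Cav1-KO against Control, 1 of 10 was called in normoxia (5.78% of all genes) and 1 of 10 in hypoxia (4.14%), in both cases Tlr1. The other 9 showed no difference past the threshold between these genotypes at either oxygen level. For Cav1-RC against Control, 4 of 10 were called in normoxia (2.28% of all genes), S100a8, S100a9, Cxcr2 and Retnlg. In hypoxia 5 of 10 were called (3.73%), the same 4 and Il1b, all calls being higher in Cav1-RC. In the fit over all 34 libraries without a list term the normoxic count was 1. The normoxic count was 0 without the libraries against their sex label, when S100a8 measured 0.96 (adjusted p = 0.28), and 1 with the list term (Cxcr2).

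For Cav1-RC against Cav1-KO, 2 of 10 were called in normoxia (4.28% of all genes), Retnlg and Tlr1, and 8 of 10 in hypoxia (14.7%), all higher in Cav1-RC, Csf3r and Fpr1 being the exceptions. The hypoxic count was 5 with the list term, with S100a8, S100a9, Mmp9, Il1b and Tlr1 called. It was 6 without female Cav1-KO replicate 2, the library with some Y-linked reads. The shares of all genes are those of the main fits and are not given for such alternatives. These counts therefore do not tell whether all genes lost calls alike. For hypoxia against normoxia, 3 of 10 rose in Control (0.846% of all genes), S100a8, S100a9 and Retnlg. In Cav1-KO 4 of 10 were called (17.6%), the same 3 higher and Fpr1 lower, and none with the list term. In Cav1-RC 4 of 10 rose (1.22%), the same 3 and Il1b, none without the libraries against their sex label and 5 with the list term.

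**Figure D5:**
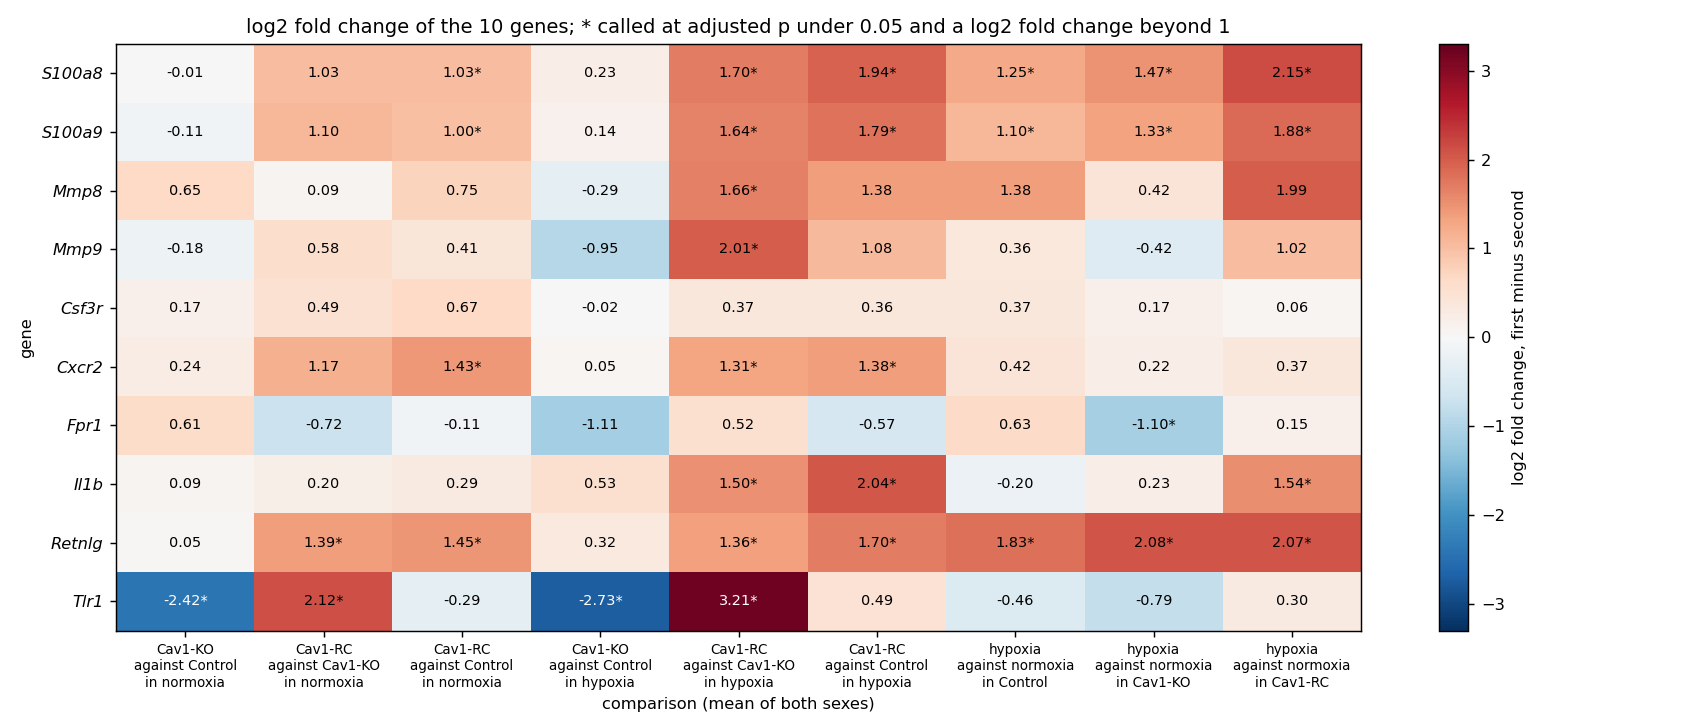
Log2 fold change of the 10 genes in the 9 comparisons with the sexes together, named group minus reference; colour gives the sign and size and an asterisk marks a called gene. Tlr1 is the only member called in the comparisons of Cav1-KO with Control (−2.42 and −2.73), and 8 of 10 are called for Cav1-RC against Cav1-KO in hypoxia.

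Within females, none of the 10 genes was called for Cav1-KO against Control in normoxia (0.122% of all genes called) or hypoxia (0.768%), for Cav1-RC against Cav1-KO in normoxia (0.1%), for Cav1-RC against Control in normoxia (0.137%), or for hypoxia against normoxia in Control (0.0175%) or Cav1-RC (0.0285%). All 3 hypoxic female Cav1-RC libraries nonetheless lay above both normoxic ones for S100a8 (79.9 to 205 FPKM against 14.9 and 31.2), a difference of 2.53 on the log2 scale (adjusted p = 0.325). For Cav1-RC against Cav1-KO in hypoxia 9 of 10 were called in females (8.98% of all genes), all but Fpr1. Fewer were called there with the list term and with limma on log2(FPKM + 1), as the last section gives. S100a8 and S100a9 were called for female Cav1-RC against Control in hypoxia (0.832%), by 2.35 and 2.27, and Fpr1 fell with hypoxia in female Cav1-KO (1 of 10; 13.3%).

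Within males, Tlr1 was the 1 member called for Cav1-KO against Control in normoxia (5% of all genes called) and in hypoxia (0.929%). For Cav1-RC against Cav1-KO 8 of 10 were called in normoxia (3.59%) and 3 of 10 in hypoxia (14.8%). For Cav1-RC against Control 6 of 10 were called in normoxia (2.45%) and 7 of 10 in hypoxia (9.9%). Of the 3 normoxic male Cav1-RC libraries 2 are those against their sex label; without them replicate 3 stood alone, assumed to vary like the other groups, and 7 and 2 of the 10 were called in normoxia against Cav1-KO and Control. Hypoxia against normoxia gave 4 called in Control (6.36%), S100a8, S100a9, Csf3r and Retnlg, with S100a8 at 9.73 to 11.6 FPKM in the 3 normoxic and 35.2 to 54.7 FPKM in the 3 hypoxic libraries. It gave 5 in Cav1-KO (17.7%), S100a8, S100a9, Csf3r and Retnlg higher and Tlr1 lower by 1.04, and 3 in Cav1-RC (2.27%), S100a8, Il1b and Retnlg. With the list term none of the 10 was called for hypoxia against normoxia in any of the 3 male genotypes, nor for Cav1-RC against Control in hypoxia. For male Cav1-RC it left 1 called against Cav1-KO at either oxygen level and 3 called against Control in normoxia. The fit over all 34 libraries without that term left 1 called in normoxia against Cav1-KO, 1 against Control, and none for hypoxia in Cav1-RC.

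The sexes were compared directly as well. In the female minus male difference of each of the 9 comparisons, 0 of the 10 members and 0 of all genes had an adjusted p under 0.05 by edgeR, while 583 to 3309 genes had an unadjusted p under 0.05 and DESeq2 called 1 to 441 genes. That count of 0 genes depended on the setting. Without the libraries against their sex label edgeR called 45 genes for Cav1-KO (110 with the Cav1-KO library kept) and 181 for Cav1-RC against Control in hypoxia, 72 for hypoxia in Control, and 0 in the 5 other comparisons that hold such a library. The list term gave up to 11 genes and no filter on low counts up to 497. For the members the count remained 0 in both former settings, while DESeq2 called 1, 1 and 2 members in 3 of the 9 comparisons and edgeR with no filter on low counts 1 to 6 members in 5. By the test used throughout, a member called in 1 sex and not in the other was not shown to differ between them.

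The hypoxic change was also compared between genotypes. None of the members passed the threshold between Cav1-KO and Control (20.2% of all genes had an adjusted p under 0.05), where Fpr1 came closest with −1.73 ± 0.612 on the log2 scale (adjusted p = 0.0515), nor between Cav1-RC and Control (0.114%), where Il1b came closest with 1.75 ± 0.436 on the log2 scale (adjusted p = 0.115). Between Cav1-RC and Cav1-KO 3 of 10 differed (42.8%), Mmp9 by 1.44 ± 0.453 (adjusted p = 0.0159), Il1b by 1.31 ± 0.424 (adjusted p = 0.0185) and Tlr1 by 1.09 ± 0.401 (adjusted p = 0.0342), a share below that of all genes. None of the 3 was called with the list term, at 0.97 for Mmp9 but 1.54 for Il1b and 1.84 for Tlr1 (adjusted p 0.177 to 0.582), or without the libraries against their sex label (adjusted p 0.0761 to 0.0972), nor with that Cav1-KO library kept and the other 3 left out (adjusted p 0.0568 to 0.0675).

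Other neutrophil genes were counted beside the 10. Of 40 genes on a list of neutrophil transcripts outside the members, 30 passed the count filter in all 9 comparisons, of which 4 rose in hypoxic Cav1-RC against Control (median log2 fold change 0.43; 3.73% of all genes called) and 7 against Cav1-KO (median 0.64; 14.7%), and none fell. Counted over all genes tested in each comparison these were 9 of 36 and 10 of 38, but genes that are near 0 elsewhere passed the filter there through the group in which they were high. Their summed level ran from 795 to 1351 CPM in hypoxic Cav1-RC and 665 to 1413 CPM in hypoxic Control, with Lrg1 as the most abundant gene. Ly6g, which encodes the surface marker of mouse neutrophils, had 0 counts in 11 of the 34 libraries and at most 40. It measured 0.455 to 2.70 FPKM in hypoxic Cav1-RC, 0 to 0.822 in hypoxic Control and 0 to 1.28 in hypoxic Cav1-KO. It passed the count filter in 3 of the 9 comparisons, those with hypoxic Cav1-RC, so its difference there is a description. Acod1, the enzyme that makes itaconate and tested in 8 of the 9, was higher in hypoxic Cav1-RC than in Control by 2.83 ± 0.577 and Mmp25, a membrane-bound protease of neutrophils, by 1.24 ± 0.277. In Control none of the 30 genes was called for hypoxia against normoxia (median 0.11, 0.846%). In Cav1-KO 3 of them rose and 4 fell with hypoxia (median −0.135, 17.6%), and in Cav1-RC 1 rose and none fell (median 0.46, 1.22%). In normoxic Cav1-KO against Control 1 of the 30 rose and 3 fell (5.78%), Cd177 by −3.29 ± 0.513, Itgam by −1.5 ± 0.255 and Pglyrp1 by −1.43 ± 0.238.

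Of 15 granule genes of immature neutrophils, 7 passed the count filter in all 9 comparisons. For hypoxia against normoxia in Cav1-RC 2 of the 7 rose and none fell (1.22% of all genes called), Ngp by 5.34 ± 0.505 (adjusted p = 0.00045) and Ltf, lactoferrin, by 2.09 ± 0.380 (adjusted p = 0.0172). Ngp measured 4.36 to 27.4 FPKM in the 6 hypoxic Cav1-RC libraries and at most 5.54 FPKM in the 28 others. Camp, the cathelicidin peptide, passed the filter in none of the comparisons within normoxia, so its values are a description: 0 to 0.283 FPKM in normoxic and 1.21 to 9.11 in hypoxic Cav1-RC, and 0 to 0.289 and 0.271 to 5.40 FPKM in normoxic and hypoxic Cav1-KO. In hypoxic Cav1-RC 2 of the 7 rose against Control and 3 against Cav1-KO (3.73% and 14.7% of all genes called). Hypoxia against normoxia in Cav1-KO gave 1 higher and 1 lower of the 7 (17.6%), Ngp at 2.77 ± 0.798 (adjusted p = 0.00979) and Lyz2 at −1.30 ± 0.132, and in Control none was called (0.846%). Of the markers of the earliest granules, Elane had 0 counts in 27 of 34 libraries and at most 8, and Mpo 0 counts in 17 and at most 24. Prtn3, on the same list, passed the count filter in all 9 comparisons. It measured 0.468 to 0.891 FPKM in normoxic Control and 0.599 to 1.36 FPKM in hypoxic Cav1-RC. The summed level of the list was 83.2% Lyz2, a gene that macrophages and alveolar type 2 cells share, and ran from 2896 to 6661 CPM in normoxic Cav1-RC (median 6309) and from 4416 to 8714 in hypoxic Cav1-RC (median 6338).

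Among 10 CXCR2 ligands and colony-stimulating factors, Cxcl2 was higher than in Control both in hypoxic Cav1-KO, by 2.06 ± 0.557 (adjusted p = 0.032), and in hypoxic Cav1-RC, by 1.97 ± 0.497 (adjusted p = 0.0324). It was low throughout, at 0.0335 to 0.247 FPKM in hypoxic Control, 0.153 to 1.73 in hypoxic Cav1-KO and 0.145 to 0.781 in hypoxic Cav1-RC, and passed the count filter in 7 of the 9 comparisons, the one within Control among them. Of the 6 genes of the list tested in all 9 comparisons, 1 rose in hypoxic Cav1-KO against Control (4.14% of all genes called), Ppbp, and none in hypoxic Cav1-RC against Control (3.73%). Over all tested genes these were 2 of 9 and 1 of 8. Ppbp, higher by 2.53 ± 0.678, is a platelet gene as well, and 6 of 8 tested platelet genes rose in that comparison (median 1.90); the part of platelets in it was not tested. Of 12 genes for the adhesion of leukocytes to endothelium 4 rose in hypoxic Cav1-RC against Cav1-KO (14.7% of all genes called), among them Icam1 by 1.33 ± 0.169 and Itgb2 by 1.46 ± 0.194. Sele, the endothelial selectin that slows passing neutrophils, was higher than in Control in hypoxic Cav1-RC, by 2.87 ± 0.364, and in hypoxic Cav1-KO, by 2.58 ± 0.330, and fell with hypoxia in Control by −2.80 ± 0.476. Of 21 Toll-like receptors and adaptors, Tlr1 and 3 others rose and 1 fell in hypoxic Cav1-RC against Cav1-KO (14.7%), with Tlr9 at 2.45 ± 0.277 and Tlr8 at 1.23 ± 0.286. Of 14 genes of the IL-1 family, its receptors and the inflammasome, Il1b was the only gene called in that comparison (14.7% of all genes called). It was also the only 1 called in hypoxic Cav1-RC against Control (3.73%). Of 13 tested S100 genes, S100a8 and S100a9 were the 2 that rose in hypoxic Cav1-RC against Control (3.73%). Of 19 tested matrix metalloproteinases and their inhibitors 3 rose there, Timp3 by 1.82 ± 0.396, Mmp25 and Mmp13, and 3 tested resistin-like genes included 1 that rose, Retnlg. Fpr2, the formyl peptide receptor next in family to Fpr1, was 1.18 ± 0.331 higher in hypoxic Cav1-RC than in Control (adjusted p = 0.0463), where Fpr1 measured −0.57 ± 0.493. None of 10 tested transcription factors of granulocytes was called in hypoxic Cav1-RC against Control and 1 against Cav1-KO.

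Markers of other cells moved with some of these results, and their part in them was not tested. Of 14 monocyte genes, 8 rose in hypoxic Cav1-RC against Control (median 1.28; 3.73% of all genes called) and 9 against Cav1-KO (median 1.58; 14.7%), while their summed level, 78.8% of it Ace, ran from 1695 to 2291 CPM in hypoxic Cav1-RC, 1354 to 2617 in hypoxic Control and 1300 to 1624 in hypoxic Cav1-KO. Of 14 alveolar macrophage genes 0 and 1 rose in those comparisons. In hypoxic Cav1-KO against normoxic Cav1-KO all 8 tested platelet genes and 8 of 9 red blood cell genes rose (17.6% of all genes called), with red blood cell genes summing to 1407 to 2170 CPM in normoxia and 1646 to 21525 CPM in hypoxia. Of 10 genes expressed by all leukocytes, none was called in hypoxic Cav1-RC against Control (median 0.32) and 2 rose against Cav1-KO (median 0.50). Of 10 lung epithelial and endothelial genes none was called in either comparison (medians −0.00202 and 0.17). Eosinophil genes (3 tested) gave 0 and 2 higher, basophil and mast cell genes (6 and 7 tested) gave 2 lower and 2 higher, platelet genes 3 higher and 1 lower, red blood cell genes 3 higher and 4 lower, T cell genes 0 and 5 higher, and B cell genes 1 and 5 higher, in each case against hypoxic Control and then Cav1-KO.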

How the data were processed

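RNA of whole lungs was sequenced from directional libraries. The authors aligned reads with HISAT2 2.0.5 to mm10 and counted fragments per gene with featureCounts 1.5.0-p3, and deposited raw counts and FPKM per library; FPKM was used for levels and the counts for tests. Versions come from the submitters' processing notes.

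Counts of all genes were tested with edgeR 4.0.16 in R 4.3.3 (TMM, filterByExpr, quasi-likelihood test) on the libraries of the groups compared, 18 comparisons within a sex and 9 with the sexes together, in which the fold change is the mean of both sexes. Female minus male and genotype by oxygen differences used the same model. A gene was called at a log2 fold change beyond 1 in size and a Benjamini-Hochberg adjusted p under 0.05, and the differences at the adjusted p alone. Alternatives used DESeq2 1.42.0, limma 3.58.1 on log2(FPKM + 1) and log2(FPKM + 0.1) with a mean FPKM of at least 0.1, no filter, 1 fit over all 34 libraries, a term for the blot list, a replicate block and leaving libraries out. Correlations used log2 CPM with a prior count of 2. The edgeR and limma code was tested on simulated data.

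The members, the 21 lists and the tests were chosen with earlier results of these data known. Beside the members, up to 3 called genes per list and comparison with the smallest adjusted p were named, and the 10 genes most correlated with the members' mean z score. Ly6g, Elane, Mpo, Prtn3, Ear2, Siglec1, Tlr2, Tlr6 and the genes most like Fpr1 and Tlr1 were named after their values were seen. Counts of the 2 lists of neutrophil genes over genes tested in all 9 comparisons were added after seeing the data. A gene that this rule would name is not reported here. Replicates within a group differed by more than sampling noise (chi-square per gene 4.5 to 198 over 32 pairs). Nothing states that libraries were separate in every technical step, so p-values measure the spread between these samples. Another library could not be placed in a group from its labels and entered no comparison.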

Additional observations from a re-analysis of the deposited data

Results flagged for a closer look

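The change with hypoxia differed between Cav1-RC and Cav1-KO for 3 members by the test of the difference itself, Mmp9 by 1.44, Il1b by 1.31 and Tlr1 by 1.09 on the log2 scale. In this comparison 42.8% of all tested genes differed, a larger share than 3 of 10, and none of the 3 was called without the libraries against their sex label (adjusted p 0.0761 to 0.0972 by edgeR). With a term for the blot list Mmp9 measured 0.97, Il1b 1.54 and Tlr1 1.84, none past the threshold. All 6 hypoxic Cav1-KO libraries and none of the hypoxic Cav1-RC libraries are on that list, so that list and genotype cannot be told apart in hypoxia.

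1 library entered no comparison because its labels call its identity uncertain and give female Cav1-KO in normoxia only as a possibility. In it S100a8 measured 33.4 FPKM, S100a9 58.8 FPKM and Retnlg 11.5 FPKM. These lie above all 6 normoxic Control libraries, whose highest values were 25, 52.4 and 5.68 FPKM. They also lie above all 5 normoxic Cav1-KO libraries, whose highest values were 25.2, 46.3 and 6.55 FPKM. They fall within the ranges of the 6 hypoxic Cav1-KO libraries, 16 to 115.5, 24.4 to 214 and 4.23 to 44.8 FPKM (medians 33.6, 64.0 and 14.1). The animal number of this library stands on the western blot lists as a normoxic Cav1-KO female. Its Tlr1 measured 0.0909 FPKM, below all 34 other libraries.

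No group held 4 or more libraries by sex, genotype and oxygen, so single libraries were not tested for standing apart from their group.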

How the results depend on the processing

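No member called in the report changed direction under any alternative that was run. Of 32 calls with the sexes together, DESeq2's Wald test, its size factors and the adjusted p alone kept all 32, no filter on low counts 31, the replicate block 27, the fit over all 34 libraries 26, limma on log2(FPKM + 0.1) 23, limma on log2(FPKM + 1) 16, and the term for the blot list 18; without the libraries against their sex label 20 of 31 were kept. Of 50 calls within a sex, DESeq2's size factors, the adjusted p alone and no filter on low counts kept all 50. Its Wald test kept 45, the replicate block 41, and the fit over all 34 libraries 30. Limma on log2(FPKM + 0.1) kept 26, limma on log2(FPKM + 1) 21, and the term for the blot list 14. The cause of these changes was not tested. Called members follow where their number moved by more than 1.5 times, without the share of all genes called under each alternative. DESeq2's Wald test called 2 for Cav1-KO against Control in normoxia, 2 for Cav1-RC against Cav1-KO in normoxia, 4 for Cav1-KO against Control in hypoxia, 5 for Cav1-RC against Control in hypoxia, and 1 and 6 for hypoxia in Control and Cav1-RC, all in females; with the sexes together it called 4 for Cav1-RC against Cav1-KO in normoxia and 2 for Cav1-KO against Control in hypoxia, in the sex differences 1, 1 and 2, and in the genotype by oxygen differences 1, 1 and 5. The adjusted p alone gave 2 for hypoxia in female Cav1-KO and 2 for Cav1-KO against Control in hypoxia. The fit over all 34 libraries gave 1, 1 and 3 in females (Cav1-KO against Control and Cav1-RC against Cav1-KO in normoxia, Cav1-KO against Control in hypoxia), 1, 1, 4 and 0 in males (Cav1-RC against Cav1-KO and against Control in normoxia, against Control in hypoxia, and hypoxia in Cav1-RC), and 1 each with the sexes together for Cav1-RC against Cav1-KO and Control in normoxia and hypoxia in Control. The list term gave 1 for Cav1-KO against Control in females at either oxygen level, 5 and 4 for hypoxic female Cav1-RC against Cav1-KO and Control, 0 for hypoxia in female Cav1-KO, 1 and 3 for normoxic male Cav1-RC against Cav1-KO and Control, 1 and 0 in hypoxia, and 0 for hypoxia in all 3 male genotypes; with the sexes together it gave 1 and 1 for normoxic and 5 for hypoxic Cav1-RC against Cav1-KO, Control and Cav1-KO in turn, 0 for hypoxia in Cav1-KO, and 1 and 0 for the hypoxic change of Cav1-RC minus Control and minus Cav1-KO. Libraries on 1 side of the list gave 2 for normoxic female Cav1-KO against Control and 3 for hypoxia in female Control. Limma on log2(FPKM + 0.1) gave 4 for normoxic male Cav1-RC against Cav1-KO, 1 and 1 for hypoxic male Cav1-RC against Cav1-KO and Control, 0 for hypoxic female Cav1-RC against Control, 1 and 0 for hypoxia in male Cav1-KO and Cav1-RC, and 1, 2 and 1 with the sexes together for normoxic Cav1-RC against Cav1-KO and hypoxia in Cav1-KO and Cav1-RC. With log2(FPKM + 1) these were 3, 1 and 1, 0, 1 and 0, and 1, 1 and 0, and further 0 for hypoxic male Cav1-KO against Control, 5 for hypoxic female Cav1-RC against Cav1-KO, and with the sexes together 1 for normoxic Cav1-RC against Control and 5 and 3 for hypoxic Cav1-RC against Cav1-KO and Control; with every gene above 0 kept, normoxic male Cav1-RC against Cav1-KO gave 1, hypoxic female Cav1-RC against Cav1-KO 3, and hypoxic male Cav1-RC against Control and hypoxia in male Cav1-KO 0. No filter on low counts gave 2, 2, 2, 2 and 6 in females (Cav1-KO against Control and Cav1-RC against Cav1-KO in normoxia, Cav1-KO against Control in hypoxia, hypoxia in Cav1-KO and Cav1-RC), 7 and 5 in males (hypoxic Cav1-RC against Cav1-KO, hypoxia in Cav1-RC), 5 and 2 with the sexes together (normoxic Cav1-RC against Cav1-KO, hypoxic Cav1-KO against Control), 3, 1, 1, 6 and 2 in 5 sex differences, and 1, 1 and 7 in the genotype by oxygen differences. Without the libraries against their sex label there were 2 for normoxic male Cav1-RC against Control, 2 for hypoxia in female Cav1-KO, 0 for hypoxia in male Cav1-RC, 1, 0 and 0 with the sexes together for normoxic Cav1-RC against Cav1-KO and Control and hypoxia in Cav1-RC, and 0 for the change of Cav1-RC minus Cav1-KO. With female Cav1-KO hypoxia replicate 2 kept and the other 3 left out, an alternative added after seeing the data, these were 2 for hypoxic Cav1-KO against Control with the sexes together and 0 for the change of Cav1-RC minus Cav1-KO.

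Deviations of same-numbered replicates of different groups had a median r of 0.00952 over 177 pairs (−0.468 to 0.608), against −0.0105 over 352 pairs of other numbers. The numbers were taken as names of samples, and whether some same-numbered libraries shared a technical step was not tested. With the replicate block the count was 2, 2 and 6 in females (Cav1-KO against Control and Cav1-RC against Cav1-KO in normoxia, hypoxia in Cav1-RC), 3, 3 and 1 in males (hypoxic Cav1-RC against Control, hypoxia in Cav1-KO and Cav1-RC), and 1 and 1 with the sexes together (normoxic Cav1-RC against Cav1-KO, hypoxia in Cav1-KO).

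With 1 library left out the counts in females ran from 0 to 2 for normoxic Cav1-KO against Control, 0 to 2 for normoxic Cav1-RC against Cav1-KO, 0 to 4 for hypoxic Cav1-KO against Control, 0 to 3 for hypoxic Cav1-RC against Control and 1 to 3 for hypoxia in Cav1-KO. In males they ran from 1 to 2 for normoxic Cav1-KO against Control, 4 to 10 for normoxic Cav1-RC against Cav1-KO, 0 to 1 for hypoxic Cav1-KO against Control, 1 to 4 and 0 to 7 for hypoxic Cav1-RC against Cav1-KO and Control, and 1 to 6 and 0 to 5 for hypoxia in Cav1-KO and Cav1-RC. With the sexes together they ran from 1 to 2 for normoxic Cav1-KO against Control, 1 to 5 and 2 to 4 for normoxic Cav1-RC against Cav1-KO and Control, 1 to 3 for hypoxic Cav1-KO against Control, 3 to 7 for hypoxic Cav1-RC against Control, and 2 to 4 and 1 to 6 for hypoxia in Cav1-KO and Cav1-RC. Where a group was left with 1 library by any of these alternatives, that library was assumed to vary like the other groups.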
